A study of Drosophila melanogaster with 32 samples.

Results

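Among the binding sites mapped in mock-treated Kc167 cells, 491 of 10605 carried Su(Hw) and CP190 without reproducible Mod(mdg4) or M1BP. They were chosen by merging all peaks of the 8 mock lists that overlapped by at least 1 bp. A site was kept when Su(Hw) and CP190 each had a peak in both mock libraries and neither Mod(mdg4) nor M1BP did. They are called pair sites here, and they made up 18.0% of the 2730 sites that had Su(Hw) and CP190 but not M1BP in both mock libraries. The other 2239 of these also had Mod(mdg4) in both libraries and are called three-protein sites. A further 1356 sites had Su(Hw) in both mock libraries and none of the other proteins in both, and 2379 had CP190 alone by the same measure.

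Su(Hw) is a zinc-finger protein that binds DNA directly and is best known from the insulator of the gypsy retrotransposon. CP190 and Mod(mdg4) are BTB-domain proteins that Su(Hw) brings to that insulator, and CP190 is also brought to chromatin by other DNA-binding proteins. M1BP is one of these; its zinc fingers recognise a promoter element called Motif 1.

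Chromatin immunoprecipitation with sequencing was done in Kc167, an embryo-derived female cell line of Drosophila melanogaster, to ask where M1BP overlaps insulator proteins and whether either binds without the other. Mock cells and cells given 20 µg of double-stranded RNA against M1BP were mapped with antibodies to all 4 proteins. A second set of mock cells and cells given 12 µg of double-stranded RNA against Cp190 were mapped for CP190 and M1BP only, so Su(Hw) and Mod(mdg4) were not mapped after CP190 knockdown. Each knockdown ran for 5 days, and each combination of antibody and treatment had 2 libraries. The labels give no genotype beyond the cell line, describe no transgene, and do not say whether replicates came from separate cultures. No measurement of the protein left after either knockdown was used here, but the peak lists of each target were shorter. M1BP had 1776 and 1699 peaks after its knockdown against 2980 and 2781 in mock cells, and CP190 had 2031 and 2150 after its knockdown against 8443 and 8197 in the second mock set. Where no peak is reported, none passed the threshold of the authors, and binding below it is possible.

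The name of the class held only in part. No Mod(mdg4) or M1BP peak was found in any mock list at 248 of the pair sites (50.5%). At 242 sites Mod(mdg4) had a peak in 1 of the 2 mock lists, which was replicate 1 at 29 sites and replicate 2 at 213. The Mod(mdg4) list of replicate 1 was the shorter of the 2, with 2999 peaks against 3664. The remaining site, in the sodium channel subunit gene Teh2, had an M1BP peak in 1 mock list. Over all 4 Mod(mdg4) lists, mock and M1BP knockdown, 160 pair sites (32.6%, 95% Wilson interval 28.6 to 36.9%) never had a peak. Wilson intervals here cover counting error only.

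**Figure D1:**
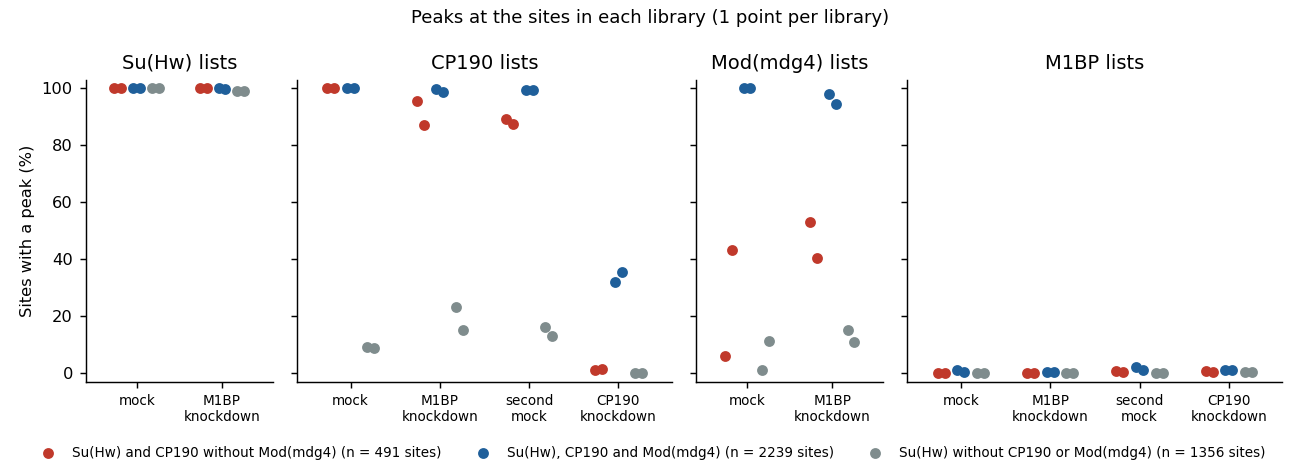
Percent of sites with a peak in each library, by antibody (panels) and treatment (horizontal axis), for pair sites (red), three-protein sites (blue) and Su(Hw) sites without the others (grey). Each point is 1 library; red points stand at 100% in all Su(Hw) lists, between 87.0% and 100% in CP190 lists before CP190 knockdown, near 1% after it, and between 5.91% and 53.0% in Mod(mdg4) lists.

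The single Mod(mdg4) peaks just inside the rule were weak. Their −log10 q, the authors' measure of peak confidence, ran from 2.0 to 23.2 with a median of 5.75. Three-protein sites had medians of 28.8 and 48.8 in the mock libraries. Just outside the rule stood sites with barely called Mod(mdg4) in both lists, such as the one in Fife, a gene of presynaptic active zones, with −log10 q of 2.05 and 2.91. The site in nAChRalpha3, a nicotinic acetylcholine receptor subunit gene, had 3.01 and 2.67. On the CP190 side the weakest member by mean, in dpr8, an immunoglobulin-family gene of neurons, had a CP190 −log10 q of 3.31 and 3.39. The values on either side of the Mod(mdg4) limit thus lie close together, and the class has no gap at its edge.

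Within their own lists, the Su(Hw) peaks of pair sites ranked in the middle and the CP190 peaks low. The fold enrichment of Su(Hw), the authors' ratio of ChIP to control signal at a peak, had a median of 11.9 in mock replicate 1 and 12.9 in replicate 2, with extremes of 2.28 and 37.7 and of 2.03 and 42.4. That of CP190 had a median of 5.04 and 5.09, against 13.1 and 12.9 at three-protein sites. Fold is not scaled between libraries, so peaks were also ranked within their own list, with 100 for the strongest. The median Su(Hw) rank of pair sites was 55.5 and 56.6 in mock cells, below the 66.0 and 65.7 of three-protein sites, and 107 of the 491 (21.8%) had a mean rank above 80. The median CP190 rank was 28.7 and 28.0, against 69.5 and 68.9. Between the 2 mock libraries the rank of a single pair site differed by a median of 6.80 for Su(Hw) and 9.40 for CP190. These mock values come from the lists that defined the class and are a description without a test.

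The same order stood in libraries the rule did not use. In the 2 second mock libraries, the median CP190 rank of pair sites was 28.6 and 26.8, against 70.1 and 68.0 at three-protein sites. After M1BP knockdown it was 37.1 and 33.9, against 72.2 and 69.6. In all 4 libraries pair sites were below three-protein sites, and below CP190 sites without the other proteins. A site without a peak in a library has no rank there and is not in its median. The CP190 medians thus cover 438 and 429 of the 491 pair sites in the second mock set and 469 and 427 after M1BP knockdown. For Su(Hw) after M1BP knockdown the medians of 67.2 and 64.1 were nearer to the 72.0 and 71.4 of three-protein sites. No test over sites was made, since sites of a library are not replicates.

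**Figure D2:**
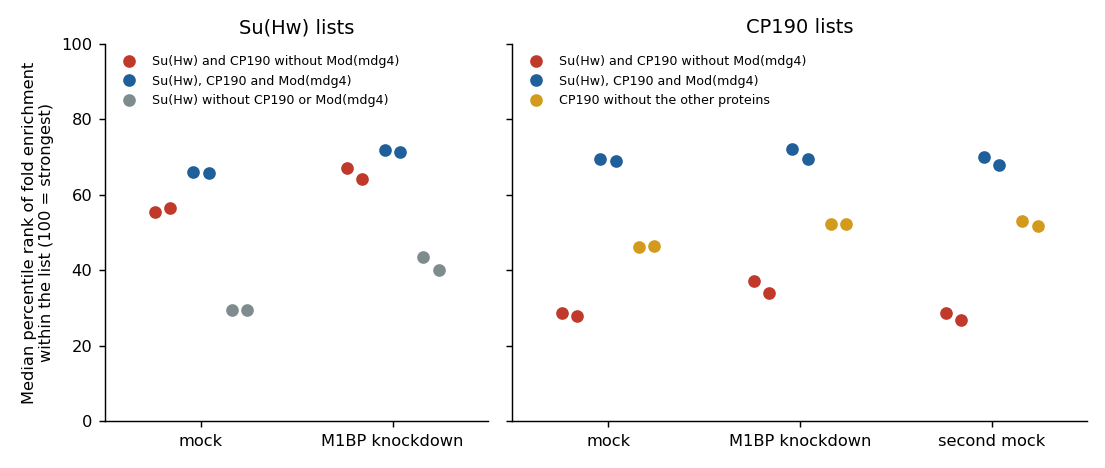
Median percentile rank of fold enrichment within each list (vertical axis, 100 for the strongest peak) by treatment, for Su(Hw) lists (left) and CP190 lists (right), with 1 point per library. In the CP190 panel pair sites (red) lie between 26.8 and 37.1 and three-protein sites (blue) between 68.0 and 72.2. Sites without a peak in a list are not in its median.

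Sites with Su(Hw) and CP190 were divided by their mean CP190 rank in the mock lists. These lists also set which sites counted as pair sites, so the shares describe the class and support nothing beyond it. At rank 0 to 20, 151 of 218 were pair sites (69.3%, interval 62.9 to 75%). The share was 44.6% (216 of 484) at rank 20 to 40, 18.2% (106 of 583) at rank 40 to 60, 1.82% (14 of 768) at rank 60 to 80, and 0.591% (4 of 677) above. By Su(Hw) rank the share ran from 36.1% in the weakest bin (52 of 144) to 13.9% in the strongest (107 of 768). Su(Hw) ranks after M1BP knockdown, from lists the rule did not use, were set beside each other within the same mock CP190 bins, without a test. The median was 54.1 at pair sites and 47.7 at three-protein sites for CP190 rank 0 to 20, 65.0 and 55.3 for rank 20 to 40, 76.2 and 66.6 for rank 40 to 60, and 82.3 and 75.4 for rank 60 to 80. In the top bin, which held 4 pair sites, the order was the other way, 46.0 and 77.3.

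**Figure D3:**
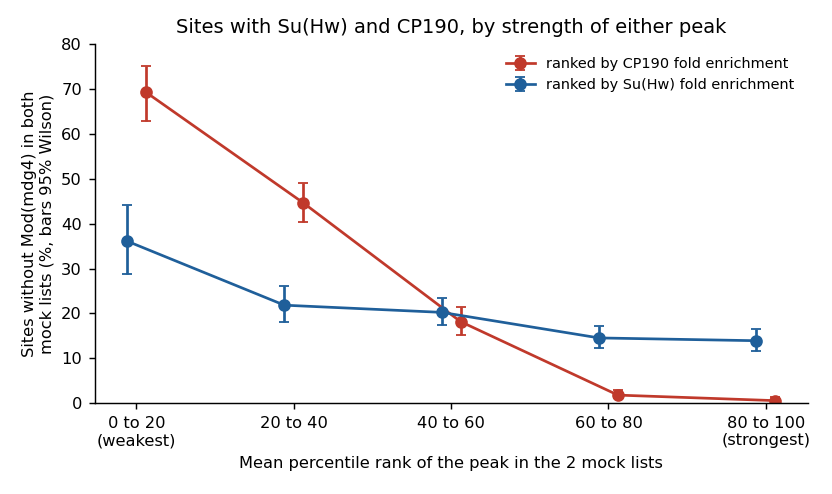
Percent of sites with Su(Hw) and CP190 that lacked Mod(mdg4) in both mock lists (vertical axis, bars are 95% Wilson intervals), by mean percentile rank of the CP190 peak (red) or the Su(Hw) peak (blue). By CP190 rank the share runs from 69.3% to 0.591%, by Su(Hw) rank from 36.1% to 13.9%.

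At nearly all pair sites Su(Hw) and CP190 lay at the same spot. Their summits, the points of highest signal, were a median of 24 bp apart in either mock library, and within 100 bp at 451 and 450 of the 491 sites. In 14 sites the summits were over 100 bp apart in both libraries, and in 7 they were over 500 bp apart. Whether these were neighbouring peaks joined by merging was not tested. The merged sites had a median width of 904 bp, against 1077 bp for three-protein sites and 649 bp for Su(Hw) alone.

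The pair sites with the most Su(Hw) show the pattern site by site. The highest lay between the genes CR44080 and Art2 at chr2L:4269043-4270948, with Su(Hw) folds of 37.7 and 42.4 in mock cells and 31.8 and 23.6 after M1BP knockdown. Its CP190 folds were 8.10 and 10.8 in mock cells, 9.02 and 6.03 after M1BP knockdown, and 6.60 and 6.23 in the second mock set, with no peak in either CP190 knockdown library. Mod(mdg4) had a peak of 6.27 in mock replicate 2 and of 2.99 in knockdown replicate 1 and none in the other 2 lists. So Su(Hw) was found in all 4 of its libraries, CP190 in all 6 outside CP190 knockdown, and Mod(mdg4) in 2 of 4.

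The site in SP2353 had Su(Hw) folds of 21.3 and 34.2 in mock cells and CP190 folds of 8.92 and 11.0. No Mod(mdg4) list had a peak there. The site between CG3795 and Scgdelta, a sarcoglycan gene, at chrX:1715106-1716061 had Su(Hw) folds of 24.0 and 34.6 with CP190 at 4.31 and 6.84, and again no Mod(mdg4) peak in 4 lists. In the dopamine receptor gene Dop1R2, the site at chr3R:29645081-29646828 had Su(Hw) folds of 23.2 and 31.4, CP190 folds of 4.32 and 5.85, and Mod(mdg4) in mock replicate 2 (3.35) and both M1BP knockdown lists (4.27 and 2.75). High Su(Hw) was therefore found both with and without Mod(mdg4). The other 6 of the 10 highest had CP190 folds of 3.64 to 8.55 in mock cells. They lay in CG34109, aus, CG44422 and CG11638, near CG14070, and between Idgf4, a growth factor gene of imaginal discs, and CG1791. At 1 of these 6, between Idgf4 and CG1791 and 13849 bp from the latter, Mod(mdg4) had a mock peak.

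After M1BP knockdown, Su(Hw) had a peak in both libraries at all 491 pair sites (interval 99.2 to 100%). Over all sites with Su(Hw) in both mock lists the share was 99.0%, and 0.419% had it in neither knockdown library, against 0 of the pair sites. CP190 was found at 95.5% of pair sites in knockdown replicate 1 and 87.0% in replicate 2. It was in both at 420 sites (85.5%, interval 82.2 to 88.4%), against 92.3% of all sites with CP190 in both mock lists and 98.4% of three-protein sites. It was in neither at 15 pair sites (3.05%), against 4.03% of all such sites. CP190 in both knockdown libraries went with CP190 strength in mock cells, at 70.9% of pair sites of rank 0 to 20, 88.9% at rank 20 to 40 and 97.2% at rank 40 to 60. With replicate 2 as the only library of each set the share kept was 74.7%, and with replicate 1 it was 88.8%. Since the mock lists chose the sites, a weak peak can only be kept or missed in the other libraries, and these shares are a description.

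In replicate 1 but not in replicate 2, Mod(mdg4) was called at more of the pair sites after M1BP knockdown than in mock cells. Both lists were longer after knockdown. It had a peak at 260 sites (53.0%) in knockdown replicate 1 and 198 (40.3%) in replicate 2, against 29 (5.91%) and 213 (43.4%) in mock cells, so replicate 2 had about the same count in both. The lists held 5575 and 4862 peaks after knockdown against 2999 and 3664. Both knockdown libraries had a peak at 171 sites (34.8%, interval 30.7 to 39.1%), 1 library at 116 and neither at 204. Over all sites without Mod(mdg4) in both mock lists the share with both was 6.73%, and at Su(Hw) sites without CP190 it was 7.30% (99 of 1356). The rule kept sites that missed this call in at least 1 mock library, so the difference from mock cells is fixed in part by the choice and is not tested. When each M1BP knockdown list was cut to its top 2999 peaks, with the mock lists left whole, the share was 12.4%. It was 21.1% with replicate 2 as the only library of each set and 45.7% with replicate 1.

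The 2 kinds of pair site differed here. Of the 249 sites with Mod(mdg4) in no mock list, 36 had it in both M1BP knockdown lists (14.5%, interval 10.6 to 19.4%) and 160 in neither. Of the 242 with Mod(mdg4) in 1 mock list, 135 had it in both (55.8%, interval 49.5 to 61.9%) and 44 in neither. Even so, the median Mod(mdg4) fold at pair sites with a peak was 2.99 and 2.76 after knockdown, against 8.04 and 6.34 at three-protein sites.

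**Figure D4:**
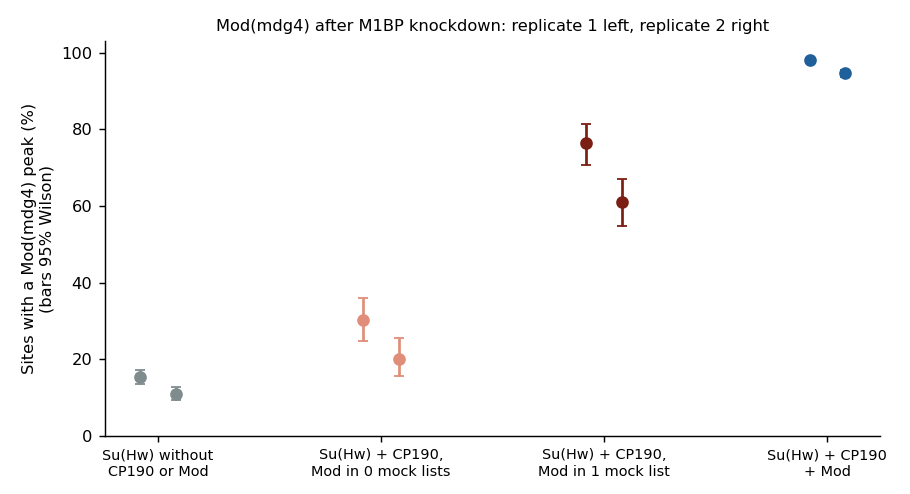
Percent of sites with a Mod(mdg4) peak in M1BP knockdown replicate 1 (left point) and 2 (right point), with 95% Wilson intervals, for 4 kinds of site named by their mock lists. Pair sites with Mod(mdg4) in 0 mock lists (light red) stand below pair sites with it in 1 mock list (dark red), and three-protein sites (blue) are at 98.1% and 94.6%.

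The strongest Mod(mdg4) peaks after M1BP knockdown stood beside obst-B, a gene of the chitin-binding obstructor family, at chr2L:10042576-10043193. Mod(mdg4) fold was 9.40 and 7.52 in the knockdown lists, 5.60 in mock replicate 2 and not called in mock replicate 1. Su(Hw) fold there was 5.60 and 6.04 in mock cells and 11.0 and 9.32 after knockdown, and CP190 fold 4.57 and 4.93, then 8.43 and 6.76. The next 4 lay in CG4238, in the ionotropic glutamate receptor gene GluRIB, in the RNA-binding protein gene Rbp6 and near CG13837, with Mod(mdg4) folds of 5.03 to 8.03 in knockdown replicate 1. Each of these 5 sites had Mod(mdg4) in mock replicate 2 only, so none was free of it before.

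The peak criteria of the rule were also applied to the M1BP knockdown lists, on the sites merged from the mock lists. They picked 598 of 3030 sites (19.7%), close to the 18.0% in mock cells. Sites with peaks only in knockdown lists could not enter this count. The 264 sites picked in both conditions were 53.8% of the mock pair sites and 44.1% of those after knockdown. Of the mock pair sites, 156 (31.8%) counted as three-protein sites after knockdown. In the other direction, 112 of the 2239 mock three-protein sites (5.00%) counted as pair sites. By a single library in place of both, the number in mock cells was 600 in replicate 1 and 375 in replicate 2. After knockdown it was 548 and 594. As shares of sites with Su(Hw) and CP190 but not M1BP in that library, replicate 1 went from 20.7% to 16.3%. Replicate 2 went the other way, from 12.9% to 19.3%.

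CP190 knockdown gave the contrast that the rule did not use. In the second mock set CP190 had a peak at 89.2% and 87.4% of the 491 sites (88.3% ± 1.30, SD, n = 2). After CP190 knockdown it had one at 1.02% and 1.43% (1.22% ± 0.288, SD, n = 2). The difference was −87.1 percentage points, with both knockdown libraries below both mock libraries. The exact permutation test over libraries, two-sided, gave p = 0.333, the smallest that 2 against 2 allows, and the adjusted value over the 7 tests of this kind was also 0.333. The design thus cannot reach the usual threshold.

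At three-protein sites CP190 went from 99.4% ± 0.0947 to 33.6% ± 2.43 (SD, n = 2), and at CP190 sites without the other proteins from 98.6% ± 0.476 to 23.4% ± 0.773. The pair sites were 11.1 points below three-protein sites in the second mock set and 32.4 points below after knockdown. The exact permutation test of that change gave p = 0.333 with n = 2, again the smallest possible. Of the 403 pair sites with CP190 in both second mock libraries, 396 had it in neither knockdown library (98.3%, interval 96.5 to 99.2%), against 70.2% of all such sites. CP190 was kept in both at 5 (1.24%), against 22.8% of all such sites. Among three-protein sites with CP190 in both second mock libraries, 1364 of 2218 had it in neither knockdown library (61.5%). Among Su(Hw) sites without the others it was 114 of 114 (100%), so near-complete loss was not particular to pair sites.

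The low share of pair sites with CP190 after knockdown went with weak peaks. Divided by CP190 rank in the second mock set, pair sites and three-protein sites with weak peaks were both mostly without CP190 after knockdown. At rank 0 to 20, 0 of 116 pair sites and 0 of 81 three-protein sites had a peak in either knockdown library. At rank 40 to 60 the knockdown libraries had a peak at 1 and 2 of 91 pair sites (1.1% and 2.2%) and at 2.2% and 3.96% of three-protein sites. Three-protein sites with peaks after knockdown came mostly from ranks above 60, where few pair sites stood. At rank 60 to 80 the knockdown libraries had a peak at 0 and 1 of 14 pair sites (upper Wilson limits 21.5% and 31.5%) and at 24.4% and 31.2% of three-protein sites. In the top bin 4 of 5 pair sites had a peak in each knockdown library, against 78.5% and 81.6% of three-protein sites. When all 4 lists were cut to their top 2031 peaks, the length of the shortest, the difference for pair sites was 0.204 percentage points with the sign turned, and only 4 pair sites had a CP190 peak that strong in both second mock libraries.

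**Figure D5:**
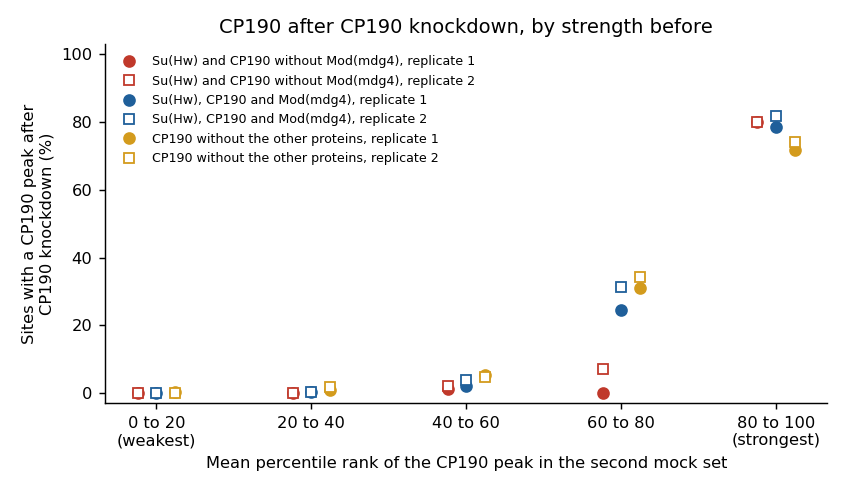
Percent of sites with a CP190 peak after CP190 knockdown (vertical axis) by mean percentile rank of the CP190 peak in the second mock set, for replicate 1 (circles) and replicate 2 (squares). Pair sites (red), three-protein sites (blue) and CP190 sites without the other proteins (orange) are all below 6% up to rank 60, and the top bin holds 5 pair sites.

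At 3 of the 5 sites that kept CP190 in both knockdown libraries, the CP190 and Su(Hw) summits were far apart. Beside BBS4, a gene of the ciliary BBSome complex, the summits were 1397 and 1473 bp apart in the mock libraries. CP190 fold there was 30.1 and 24.4 in the second mock set and 6.60 and 10.9 after CP190 knockdown. In EDTP, a phosphatase gene, the distance was 754 and 702 bp, and CP190 fold was 25.0 and 25.6, then 10.7 and 7.91. That site also had M1BP in both second mock libraries. Beside Moca-cyp, a cyclophilin-family gene, the distance was 694 and 633 bp.

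The other 2 had their summits together. In Actbeta, which encodes an activin-type ligand, on chromosome 4 at chr4:1084374-1085176, the summits were 37 and 15 bp apart. CP190 fold was 23.3 and 19.3 in the second mock set and 5.04 and 6.62 after CP190 knockdown. In SNF4Agamma, the gamma subunit gene of AMP-activated kinase, CP190 fold was 11.1 and 8.22, then 4.37 and 2.26. A peak in knockdown replicate 2 alone was found near GluClalpha, a glutamate-gated chloride channel gene, and in Lmx1a, a LIM-homeodomain gene; both were looked up after their values were seen. Without the 14 sites with distant summits, the share that lost CP190 was 99.0%.

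Among the sites that lost CP190, the strongest second mock peak was in CG31816 at chr2L:16542380-16544060. CP190 fold there was 22.4 and 18.9 in the second mock set and no peak was called in either knockdown library. Its Su(Hw) and CP190 summits were also apart, by 500 and 536 bp. The next was the CG4238 site at chr2L:2020158-2020737, where the summits were 1 and 2 bp apart and the CP190 folds 12.0 and 12.0. No CP190 peak was called there in either knockdown library. The median CP190 fold of three-protein sites in the second mock set was 12.3 and 11.8. Of three-protein sites at CP190 rank 60 to 80 in that set, 64.0% had CP190 in neither knockdown library.

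M1BP peaks were few at pair sites, which the rule fixed for the mock lists. No site had it in mock replicate 1 and 1 had it in replicate 2. In the lists that the rule did not use, M1BP had a peak at 3 and 2 of the 491 sites in the second mock set and at 3 and 2 after CP190 knockdown. In the second mock set that was 0.611% and 0.407% of pair sites, between the 0.147% and 0.0737% of Su(Hw) sites without the others and the 2.14% and 1.07% of three-protein sites. After M1BP knockdown there were 0 in either library, for which the upper Wilson limit is 0.776%.

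Few pair sites lay at gene ends. Of the 490 on the chromosome arms, 310 had their summit inside a gene (63.3%, interval 58.9 to 67.4%), against 55.1% of all 10552 merged sites on the arms, 58.1% of three-protein sites and 71.1% of Su(Hw) sites without the others. Within 250 bp of either end of a gene lay 44 (8.98%, interval 6.76 to 11.8%). That share was 41.7% over all merged sites, 15.5% (interval 14.0 to 17.0%) at three-protein sites, 5.46% (4.37 to 6.80%) at Su(Hw) sites without the others, and 65.0% at CP190 sites without the others. The median distance to the nearest gene end was 3865 bp, between the 2090 bp of three-protein sites and the 4879 bp of Su(Hw) alone. In position, pair sites thus stood between the other Su(Hw) classes and far from CP190 alone. The gene table held no strand, so starts and stops of genes were not told apart. The pair sites were spread over the arms, with 99 on 2L, 88 on 2R, 82 on 3L, 126 on 3R, 93 on X and 2 on chromosome 4.

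By mock CP190 rank, the share of pair sites at gene ends had no single direction against three-protein sites. It was 7.28% (11 of 151) against 2.99% (2 of 67) at rank 0 to 20, and 5.58% (12 of 215) against 8.21% (22 of 268) at rank 20 to 40. At rank 40 to 60 it was 17.0% (18 of 106) against 6.93% (33 of 476), and at rank 60 to 80 it was 21.4% (3 of 14) against 18.2% (137 of 752). In the top bin it was 0 of 4 against 22.6% (152 of 673). These differences were not tested.

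The nearest other Su(Hw) site was a median of 8279 bp from a pair site. It was a three-protein site for 225 of 490 (45.9%), a Su(Hw) site without the others for 178 and another pair site for 73 (14.9%). Pair sites made up 11.4% of all Su(Hw) sites on the arms, and 52.2% were three-protein sites.

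Of the 10 gene lists looked up, pair sites were found at 5. For the 3 lists with the most sites the share was close to that of all Su(Hw) sites. For genes of neuronal excitability and synapses there were 17 pair sites (3.47%, against 3.34% of the 4280 Su(Hw) sites on the arms). The site at chrX:17993885-17995375 in Sh, the Shaker potassium channel gene, had Su(Hw) folds of 22.5 and 23.3 in mock cells. Its CP190 folds were 8.40 and 8.19, the highest CP190 of the 4 named. Another pair site in Sh, not among those 4, had Su(Hw) folds of 21.3 and 22.1 and CP190 folds of 4.70 and 3.16. The other named sites were in Dop1R2, in the active-zone gene brp and at the end of the vesicle fusion gene nSyb. In brp CP190 had no peak in either second mock library.

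Axon guidance and cell adhesion genes had 8 sites (1.63%, against 1.78%), among them Ten-a, a teneurin gene, the semaphorin genes Sema1a and Sema2b, and Dscam4. In Dscam4 Mod(mdg4) had folds of 4.07 in mock replicate 2 and 5.83 and 2.92 after M1BP knockdown, while Sema1a had none in 4 lists. Chemosensory receptor genes had 4 sites (0.816%, against 1.0%), with ppk9, Or98b, Ir94a and Or35a as the nearest genes. The distances to these genes were 3421, 25506, 3020 and 181 bp. At the ppk9 site the Su(Hw) folds were 20.5 and 23.7. CP190 there, at 3.34 and 4.30 in mock cells, had no peak in the second mock set. Cytochrome P450 genes had 2 pair sites of the 10 Su(Hw) sites found there, near Cyp4e3 and Cyp318a1. The share was 0.408% of pair sites (interval 0.112 to 1.48%), against 0.234% of all Su(Hw) sites.

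Of the 5 Su(Hw) sites found at homeotic genes, 2 were pair sites, both in Antp. The share was 0.408% of pair sites (interval 0.112 to 1.48%), against 0.117% of all Su(Hw) sites. The first, at chr3R:6961830-6962933, had Su(Hw) folds of 11.9 and 7.90, CP190 folds of 5.58 and 3.09, and Mod(mdg4) in M1BP knockdown replicate 2 only (2.40). The second, at chr3R:6977217-6978334, had Su(Hw) folds of 8.70 and 9.37 and CP190 folds of 6.67 and 5.63, and no Mod(mdg4) peak in 4 lists. No pair site was found at odorant-binding, cuticular, Osiris, insulator protein or ribosomal protein genes. All Su(Hw) sites on the arms had only 11, 17, 12, 1 and 5 of 4280 there, so a count of 0 says little. None was found in or between y and ac.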

How the data were processed

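ChIP-seq peak lists of 24 libraries were analysed, and 8 input samples without a list were not analysed here. The submitters' processing notes name MACS2 2.2.5, Picard 2.20.2, SAMtools 1.9 and Bowtie2 2.3.5, without order or options. Each library's peaks were called separately by the authors, judging by the names of the peaks. The deposited score is the integer MACS2 writes and was not used. The deposited fold enrichment is a ratio that is not scaled between libraries, and it was used to describe and rank peaks within a list. The −log10 p and −log10 q are those the authors deposited, and the smallest −log10 q was 1.30. The last deposited value is the summit position within the peak.

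The build is not given in the labels. Sequence names and the largest chrM coordinate of 19524 match dm6, and a Release 6 gene table without strand gave names and gene ends. No genome sequence was used, so no site sequence is printed and the planned motif search was not run. Positions are 1-based. 1 pair site off the chromosome arms was left out of position counts.

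Python 3.11.15, numpy 2.4.6, pandas 2.3.3 and scipy 1.17.1 were used, and merging and tests were checked on simulated data. The rule was read so that a Mod(mdg4) or M1BP peak in 1 mock list does not remove a site. Shares carry 95% Wilson intervals, and libraries were compared by exact permutation, two-sided, with Benjamini-Hochberg adjustment. The p-values given are the smallest this design allows and do not measure the spread between libraries. That spread may be technical. Depth in reads: not given in the sources used here. Precision is limited by the 1699 to 8443 peaks of a list. Named sites are the 10 with the highest mock Su(Hw) fold, the 5 with the highest Mod(mdg4) fold after M1BP knockdown, the 5 strongest that lost and that kept CP190 after CP190 knockdown, up to 4 per gene list, the 5 weakest by CP190 −log10 q, sites at y and ac, and sites with M1BP in both second mock lists; not all are described. Members and gene lists were chosen with earlier results of these data known. Alternatives were other overlap rules, −log10 q of 10 or more, equal list lengths, the strict rule without any Mod(mdg4) or M1BP peak, gene ends within 500 bp, site middles, leaving out replicates and a replicate block. Dropping sites with summits over 100 bp apart was added after seeing the data.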

Additional observations from a re-analysis of the deposited data

How the results depend on the processing

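The number of pair sites was 491, and it was 857 with at least 50% reciprocal overlap, 9 with equal numbers of top peaks (2781 per mock list), 248 without any Mod(mdg4) or M1BP mock peak, and 375 to 600 with 1 replicate left out. The CP190 difference after CP190 knockdown was −87.1 points and turned to 0.204 with equal list lengths, and it ran from −88.0 to −86.2 with 1 library left out. The labels do not say that replicate numbers pair libraries, and deviations of same-numbered CP190 libraries had r = 0.0355 over 1723 sites; the replicate block kept −87.1, with an exact paired p of 0.5, the smallest 2 pairs allow. For Mod(mdg4) r was −0.114, and no paired test was made. The share that lost CP190 was 25.0% with equal list lengths (1 of 4 sites), 93.5% with summits within 100 bp, and 98.9 to 99.0% with 1 replicate left out. Mod(mdg4) in both M1BP knockdown lists was 24.9% with reciprocal overlap and 14.5% under the strict rule. With the knockdown lists cut to their top 2999 peaks it was 12.4%, and with 1 replicate left out it was 21.1 to 45.7%. CP190 kept after M1BP knockdown was 81.5% with summits within 100 bp, 89.4% for peaks with −log10 q of at least 10, and 74.7 to 88.8% with 1 replicate left out. Su(Hw) kept was 90.3% with reciprocal overlap, 94.7% with summits within 100 bp, and 99.3 to 99.7% with 1 replicate left out. It was 99.0% with the knockdown lists cut to their top 4544 peaks. The mock lists were left whole for this cut and for the Mod(mdg4) cut. The share at gene ends was 14.5% within 500 bp and 9.52 to 9.87% with 1 replicate left out; inside genes it was 62.9 to 64.3%. The cut of the mock lists to 2781 peaks was uneven, from 7831 and 7796 for CP190 and from 2999 and 3664 for Mod(mdg4). The cause of the shifts was not tested.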

Other observations

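The 310 pair sites inside genes fell in 276 genes, of which 237 held 1 such site, 26 held 2, 9 held 3 and 4 held 4. The 4 genes with 4 were looked up after their counts were seen. They were dnc, which encodes a cAMP phosphodiesterase, mbl, the muscleblind splicing factor gene, and dpr6 and dpr8, a pair of immunoglobulin-family cell surface genes. Each also held other Su(Hw) sites, with 5 three-protein sites and 7 without the others in dnc, 6 and 5 in mbl, 2 and 4 in dpr6, and 4 and 3 in dpr8. Of the 9 genes with 3 pair sites, 6 held no three-protein site. They were Octbeta1R, an octopamine receptor gene, and alph, which held no Su(Hw) site without the others either, and Cow, fred, hth and Rbfox1, which held 1, 2, 1 and 4 of those. The other 3 were CG34354, Stacl and cpo, with 2, 2 and 5 three-protein sites. A site under overlapping genes was counted for each of them, and gene length was not taken into account. The genes with 3 or 4 pair sites were picked by counts from the lists that set the rule. How many other genes with Su(Hw) sites lacked a three-protein site is not given here.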
